A study of Arabidopsis thaliana with 24 samples.

Results

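The 6 genes described here are nuclear protein-coding genes of Arabidopsis thaliana whose reads were higher among NAD-capped RNA than among total RNA in each of 4 conditions. They are AT3G05155, AT2G04500, AT3G08520, AT2G15960, AT4G29390 and AT1G23130, and they are 6 of 28775 gene rows in the deposited tables. They were chosen on the NAD and total RNA counts themselves, so the NAD levels over total RNA given below describe the choice and carry no test. In the fit used here 10 of 5251 nuclear protein-coding genes tested were higher in NAD libraries in all 4 conditions, and the 6 genes were among them. The others were CP12-1, the metallothionein genes MT2B and MT3, and the dehydrin gene AT1G54410.

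Plants were dxo1 mutants, with a lesion in DXO1 (AT4G17620), or wild-type Col-0, and each genotype was grown with abscisic acid (ABA) or under the normal condition without it (NT). All were 12-day-old plants on MS medium, the ABA dose is not given in the labels, and nothing in the labels says whether the 2 replicates of a group came from separate plants. Each of dxo1 ABA, dxo1 NT, Col-0 ABA and Col-0 NT was sequenced as NAD-captured RNA (NAD libraries), as uncapped and cleaved RNA (GMUCT libraries) and as total RNA, in 2 replicates, which gives 12 groups and 24 libraries. The p-values below therefore rest on the spread within such pairs, and that spread may be technical only.

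Most messenger RNAs begin with a methylguanosine cap, but some begin with the cofactor NAD, which RNA polymerase can place at the first position of the transcript in place of adenosine. DXO1 is a plant enzyme known to remove such NAD caps, and ABA is the hormone of drought and seed maturation. GMUCT captures RNA with a free 5′ phosphate, the form that decapping and cleavage leave behind.

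NAD libraries were shallow for genes of this kind. They held 0.751 to 1.53 M gene counts (M is 10 to the power 6), against 0.878 to 2.03 M in total RNA libraries, and GMUCT libraries held 5.79 to 13.9 M. Nuclear protein-coding genes took 2.17% to 17.7% of NAD counts and 12.7% to 26.4% of total RNA counts, against 95.7% to 96.7% of GMUCT counts, and the single mitochondrial gene ATMG01390 took 43.9% to 85.1% of NAD counts. Col-0 ABA NAD replicate 1 stood apart with the lowest of these nuclear shares and the highest of these ATMG01390 shares. DXO1 kept reads in every group: its GMUCT level was 17.3 ± 2.29 CPM in dxo1 ABA, 19.8 ± 2.41 CPM in dxo1 NT, 31.4 ± 1.25 CPM in Col-0 ABA and 27.9 ± 3.40 CPM in Col-0 NT (SD, n = 2 each; CPM is counts per M, scaled by TMM). The labels call the material both seedling and bud. Of 8 floral bud markers 7 had 0 reads in every NAD library and 6 had 0 in every total RNA library (summed levels of 0 to 2.06 CPM and 0 to 2.78 CPM), while all 8 had GMUCT reads, with 1.13 to 6.91 CPM in all; 4 leaf markers summed to 2000 CPM or more in every NAD library, to 1710 CPM or more in every total RNA library and to 5690 CPM or more in every GMUCT library.

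The 6 genes share little by function. AT3G05155 encodes a protein of the major facilitator superfamily in the ERD6-like group, whose characterised members move sugars across membranes, and lies at chr3:1448196-1452215 on the plus strand with 17 exons. AT2G04500 encodes a Cys/His-rich C1 domain protein, a zinc-binding fold, from 1 exon at chr2:1568279-1570271 on the plus strand. AT3G08520 encodes ribosomal protein L41 (RPL41), a very small and basic protein of the large ribosomal subunit, at chr3:2586001-2586343 on the plus strand in 2 exons. AT4G29390 encodes ribosomal protein S30 (RPS30) of the small subunit, at chr4:14464856-14466029 on the minus strand in 3 exons. AT2G15960, annotated only as a stress-induced protein, has 1 exon at chr2:6947096-6947866 on the plus strand. AT1G23130 encodes a protein of the polyketide cyclase and lipid transport superfamily, a Bet v1-like fold with a cavity for hydrophobic ligands, from 2 exons at chr1:8200321-8201246 on the plus strand. Coordinates and names are from the TAIR10.1 annotation.

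Since an NAD cap sits on the first base of a transcript, the 50 bases before each annotated start are shown 5′ to 3′ on the gene's own strand, with the start base itself as the capital at the end. The windows are chr3:1448146-1448196 (plus strand) for AT3G05155, chr2:1568229-1568279 (plus) for AT2G04500, chr3:2585951-2586001 (plus) for AT3G08520, chr2:6947046-6947096 (plus) for AT2G15960, chr4:14466029-14466079 (minus) for AT4G29390 and chr1:8200271-8200321 (plus) for AT1G23130, all in TAIR10.1.
AT3G05155: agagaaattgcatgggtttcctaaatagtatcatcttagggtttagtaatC
AT2G04500: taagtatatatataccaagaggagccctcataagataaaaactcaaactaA
AT3G08520: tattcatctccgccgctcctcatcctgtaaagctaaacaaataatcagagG
AT2G15960: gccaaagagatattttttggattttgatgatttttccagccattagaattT
AT4G29390: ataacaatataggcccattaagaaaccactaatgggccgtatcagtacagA
AT1G23130: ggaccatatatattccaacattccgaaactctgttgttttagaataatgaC
The annotated start base was A in 2 of the 6, AT2G04500 and AT4G29390, and A starts 42.8% of 26709 nuclear protein-coding genes. It was C in AT3G05155 and AT1G23130 (22% of genes), G in AT3G08520 (17.7%) and T in AT2G15960 (17.5%). The counts hold no read positions, so the start used in these plants was not measured. The TATA motif TATAAA was in 0 of the 6 windows on either strand, against 15.6% of all genes. The motif ACGTG, the core of ABA response elements, was within the 250 bases before the start on either strand in AT2G15960 and AT4G29390, and in 23.1% of all genes.

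AT3G05155 had 51 and 37 counts in the 2 dxo1 ABA NAD libraries, 5 and 10 in dxo1 NT, 11 and 15 in Col-0 ABA and 5 and 13 in Col-0 NT, against 0 in all 8 total RNA libraries. This sugar transporter family gene was thus read only in NAD and GMUCT libraries, and its NAD counts were highest with ABA in dxo1. Its NAD level was set against a floor of 3 counts over the total RNA libraries of the same condition. On that floor it was 49.5-fold higher in dxo1 ABA, 6.80-fold in dxo1 NT, 20.5-fold in Col-0 ABA and 6.34-fold in Col-0 NT. The floors cover counting error of total RNA only. The NAD counts were taken as exact, so these values are not lower limits.

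AT2G04500, the C1 domain gene, had 23 and 15 counts in dxo1 ABA NAD libraries, 7 and 6 in dxo1 NT, 12 and 7 in Col-0 ABA and 7 and 10 in Col-0 NT. Its total RNA counts were 1 and 3 in dxo1 ABA, 0 and 0 in dxo1 NT, 1 and 1 in Col-0 ABA and 0 and 0 in Col-0 NT. It was therefore close to the limit of detection in total RNA in every condition. Against the same floor, with NAD counts again taken as exact, its NAD level was 5.90-fold higher in dxo1 NT and 5.99-fold in Col-0 NT. The ratio was 16.0 in dxo1 ABA (95% exact counting interval 5.77 to 61.8) and 22.5 in Col-0 ABA (5.42 to 199).

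AT3G08520 (RPL41) had 78 and 84 counts in dxo1 ABA NAD libraries, 109 and 98 in dxo1 NT, 11 and 39 in Col-0 ABA and 34 and 28 in Col-0 NT. Its total RNA counts were 5 and 2 in dxo1 ABA, 0 and 2 in dxo1 NT, 3 and 2 in Col-0 ABA and 6 and 3 in Col-0 NT. Scaled for depth, each dxo1 NAD library was above each Col-0 NAD library, and every NAD library was above every total RNA library. The genes were chosen on NAD over total RNA, so a lack of overlap between those libraries, here and below, is no result. For dxo1 against Col-0 the share of all genes that separate so was not counted. The log2 fold change of NAD over total RNA was 5.22 ± 0.48 in dxo1 ABA, 4.44 ± 0.55 in Col-0 ABA and 2.83 ± 0.50 in Col-0 NT (SE). In dxo1 NT, with 2 counts in total RNA, the ratio was 141 (95% exact counting interval 38.5 to 1171).

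AT2G15960, the stress-induced protein gene, had 18 and 16 counts in dxo1 ABA NAD libraries, 53 and 33 in dxo1 NT, 12 and 25 in Col-0 ABA and 52 and 35 in Col-0 NT. Its total RNA counts were 12 and 7 in dxo1 ABA, 7 and 4 in dxo1 NT, 4 and 9 in Col-0 ABA and 19 and 9 in Col-0 NT. NAD and total RNA levels did not overlap within any condition, although dxo1 ABA had the lowest NAD level. The log2 fold change of NAD over total RNA was 1.58 ± 0.47 in dxo1 ABA, 3.37 ± 0.48 in dxo1 NT, 2.73 ± 0.50 in Col-0 ABA and 1.70 ± 0.42 in Col-0 NT (SE).

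AT4G29390 (RPS30) had the most even NAD counts, with 20 and 23 in dxo1 ABA, 22 and 24 in dxo1 NT, 13 and 16 in Col-0 ABA and 24 and 17 in Col-0 NT. Its total RNA counts were 17 and 5 in dxo1 ABA, 7 and 8 in dxo1 NT, 10 and 6 in Col-0 ABA and 4 and 4 in Col-0 NT. All NAD levels lay above all total RNA levels. The log2 fold change of NAD over total RNA was 1.74 ± 0.51 in dxo1 ABA, 2.05 ± 0.53 in dxo1 NT, 2.22 ± 0.56 in Col-0 ABA and 2.36 ± 0.60 in Col-0 NT (SE). This gene overlaps VPS15 (AT4G29380) on the other strand over 829 bases, and 57.0% of its 50-base stretches lie inside that overlap. Reads were strand-specific per the labels, but the strand setting of the counting is not given in the sources used here, so reads of the overlap may not be told apart. VPS15 held 21 NAD, 777 GMUCT and 44 total RNA counts over all libraries, against 159, 11394 and 61 counts of AT4G29390.

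AT1G23130, the Bet v1-like gene, had 47 and 43 counts in dxo1 ABA NAD libraries, 100 and 72 in dxo1 NT, 3 and 44 in Col-0 ABA and 74 and 61 in Col-0 NT. Its total RNA counts were 31 and 12 in dxo1 ABA, 29 and 24 in dxo1 NT, 16 and 10 in Col-0 ABA and 29 and 18 in Col-0 NT. Its levels were lower with ABA in both kinds of library, and Col-0 ABA was the only condition of the 6 genes where NAD and total RNA libraries overlapped. There the NAD level of replicate 1 lay between the total RNA levels of 10.7 and 9.13 CPM, and that of replicate 2 was 55.1 CPM. The log2 fold change of NAD over total RNA was 1.84 ± 0.45 in dxo1 ABA, 2.13 ± 0.43 in dxo1 NT, 1.90 ± 0.50 in Col-0 ABA and 1.56 ± 0.44 in Col-0 NT (SE). Without Col-0 ABA NAD replicate 2, which leaves the library that stood apart, the Col-0 ABA value was -0.044.

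**Figure D1:**
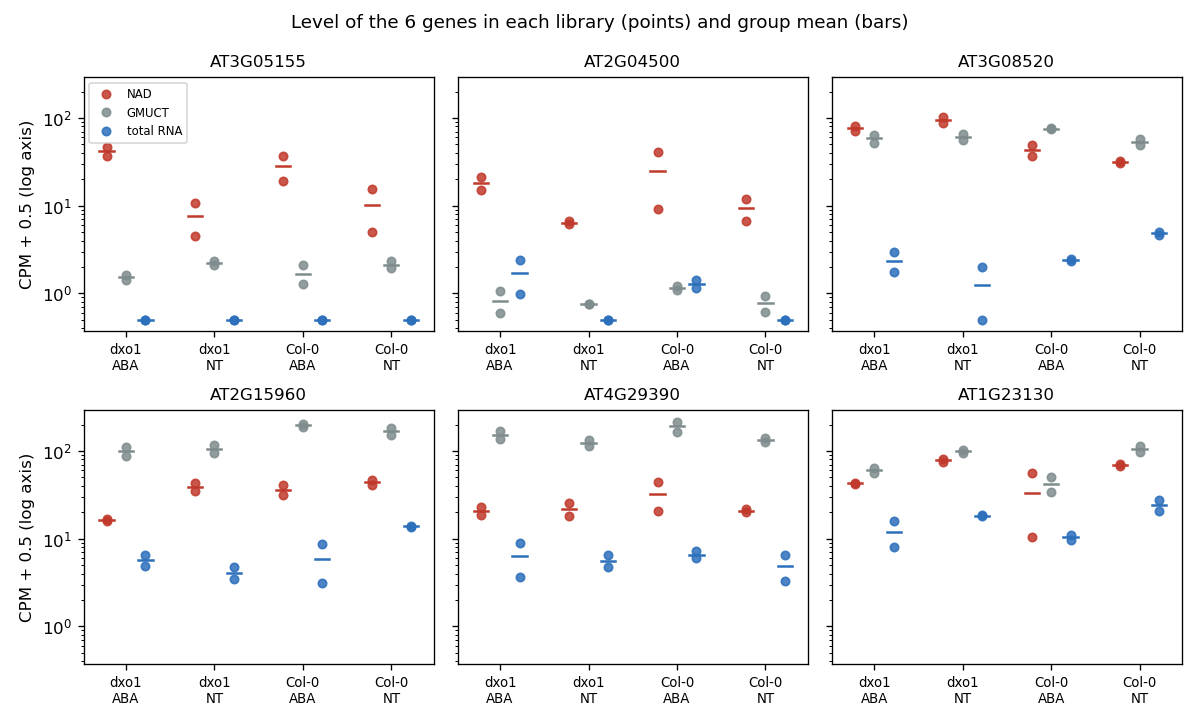
Level of each gene in each library on a log axis (CPM + 0.5), with NAD, GMUCT and total RNA libraries of dxo1 ABA, dxo1 NT, Col-0 ABA and Col-0 NT side by side; points are libraries and bars are means of 2. The NAD points lie above the total RNA points in each panel except for AT1G23130 in Col-0 ABA, and the GMUCT points of AT3G05155 and AT2G04500 lie far below those of the other 4 genes.

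As background to these values, adjusted p under 0.05 in edgeR's quasi-likelihood test with Benjamini-Hochberg adjustment was reached, in the direction of higher NAD, by 5.14% of nuclear protein-coding genes tested in dxo1 ABA, 6.21% in dxo1 NT, 0.99% in Col-0 ABA and 1.26% in Col-0 NT. The 6 genes were picked for passing in all 4. The rule left out 4785 of 5251 such genes with no call, and 289, 116 and 51 were called in 1, 2 and 3 conditions. The genes just inside the rule, by the largest of their 4 adjusted p values, were AT1G23130, MT3 and AT1G54410 at 0.0395, 0.0407 and 0.0413. Just outside were AT1G19000, AT2G11910 and PSBW at 0.0548, 0.0564 and 0.0579.

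Ranked by fitted log2 NAD over total RNA among 5251 nuclear protein-coding genes, AT3G08520 stood at 4 in dxo1 ABA, 8 in Col-0 ABA and 43 in Col-0 NT. AT2G15960, AT4G29390 and AT1G23130 ranked between 35 and 306. No rank is given where the total RNA libraries of a condition held 3 or fewer counts of the gene, nor for AT2G04500 in dxo1 ABA with 4, and genes with so few counts are among those ranked.

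**Figure D2:**
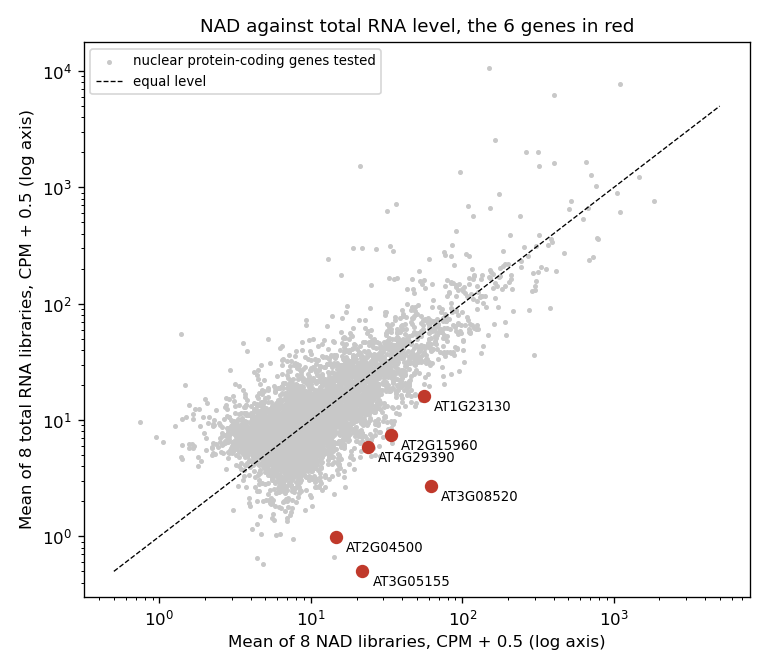
Mean level over 8 NAD libraries (x axis) and over 8 total RNA libraries (y axis) of all nuclear protein-coding genes tested, both as CPM + 0.5 on log axes, with the 6 genes in red and the line of equal level dashed. AT3G05155, AT2G04500 and AT3G08520 lie farthest below the line among the 6.

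The third assay, which took no part in the choice, separated the genes further. Per length of spliced transcript, the mean NAD level was 10.6 CPM per kb for AT3G05155 and 7.13 for AT2G04500, against 248 for AT3G08520, 43.2 for AT2G15960, 34.8 for AT4G29390 and 65.1 for AT1G23130. The mean GMUCT level was 0.689 CPM per kb for AT3G05155 and 0.19 for AT2G04500, which put them above 30.7% and 23.0% of 26710 nuclear protein-coding genes. The 4 other genes had 251 (AT3G08520), 184 (AT2G15960), 223 (AT4G29390) and 90.4 CPM per kb (AT1G23130) in GMUCT and stood above 95.2% to 98.6% of genes. On the NAD scale all 6 stood above 92.6% or more of genes, and on the total RNA scale the order was AT1G23130 at 18.5 CPM per kb, AT3G08520 at 8.99, AT2G15960 at 8.92, AT4G29390 at 7.93, AT2G04500 at 0.248 and AT3G05155 at 0. Neighbours in that order from AT3G08520 to AT4G29390 differ by less than the spread of their own libraries. GMUCT levels and NAD levels were scaled separately and were not tested against each other.

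AT3G05155 and AT2G04500 were scarce as uncapped RNA as well. AT3G05155 had 8 and 12 GMUCT counts in dxo1 ABA, 28 and 24 in dxo1 NT, 9 and 4 in Col-0 ABA and 21 and 13 in Col-0 NT. AT2G04500 had 1 to 5 counts in each GMUCT library, 27 in all, and was too low to be tested there. For AT3G05155 the deeper GMUCT libraries held 119 counts in all, while the shallower NAD libraries held 147 and the total RNA libraries 0. Of the 1974 stretches of 50 bases of the AT3G05155 transcript, 0 were found outside that gene. For AT2G04500, 99.3% of such stretches were not found outside the gene. The nearest annotated genes after these 2 were AT3G05160, with 30 NAD and 132 total RNA counts, and AT2G04515, with 0 of each.

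For the other genes GMUCT gave 174 or more counts per library and allowed tests of ABA and of genotype. The 4 comparisons share libraries with one another. Where the libraries of 2 groups are said not to overlap, above, here and below, the share of all genes that separate so was not counted. Such statements are a description only. ABA changed 3 of the 5 genes tested in Col-0, where 26.7% of all genes tested changed (2745 higher and 2505 lower, or 2121 and 3671 with scaling by library size alone). AT1G23130 had 280 and 174 counts in Col-0 ABA, against 1126 and 1015 in Col-0 NT, or 41.6 ± 11.2 CPM, against 105 ± 10.8 CPM (SD, n = 2 each), and the groups did not overlap. This Bet v1-like gene fell by 1.34 ± 0.18 on the log2 scale (SE, edgeR adjusted p = 1.77e-05). AT3G08520 (RPL41) had 429 and 386 counts in Col-0 ABA, against 566 and 514 in Col-0 NT, which is 75.3 ± 0.751 CPM against 53.2 ± 5.72 CPM, and rose by 0.50 ± 0.17 (edgeR adjusted p = 0.0315). AT4G29390 (RPS30) had 1214 and 855 counts in Col-0 ABA, against 1439 and 1270 in Col-0 NT, which is 190 ± 34.6 CPM against 133 ± 11.7 CPM, and rose by 0.51 ± 0.17 (edgeR adjusted p = 0.0325). The calls of both ribosomal genes were fragile. RPL41 missed the threshold without any 1 of the 4 libraries (edgeR adjusted p of 0.0790 to 0.273), RPS30 without either NT library or Col-0 ABA replicate 1 (0.0969 to 0.328), and both with scaling by library size alone, which puts the median of all genes at -0.14, against -0.0093 with TMM (0.0974 for RPL41 and 0.0965 for RPS30). AT3G05155 stood at -0.46 ± 0.54 (edgeR adjusted p = 0.570) and AT2G15960 at 0.23 ± 0.17 (edgeR adjusted p = 0.358).

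In dxo1, ABA changed 1 of the 5 genes, where 7.68% of all genes tested changed. AT1G23130 had 493 and 674 counts in dxo1 ABA, against 1543 and 1415 in dxo1 NT, or 59.8 ± 5.52 CPM, against 98.8 ± 6.03 CPM (SD, n = 2 each). It fell by 0.72 ± 0.17 on the log2 scale (SE, edgeR adjusted p = 0.0109), with no overlap between the groups. The call was lost without dxo1 NT replicate 1 (edgeR adjusted p = 0.0719) or dxo1 ABA replicate 1 (0.0573). AT3G08520 had 566 and 547 counts in dxo1 ABA, against 972 and 829 in dxo1 NT, and AT4G29390 had 1497 and 1441, against 1707 and 1971. Their log2 changes were -0.057 ± 0.16 (edgeR adjusted p = 0.909) and 0.31 ± 0.17 (edgeR adjusted p = 0.368), and RPL41 libraries overlapped. AT3G05155 stood at -0.75 ± 0.46 and AT2G15960 at -0.098 ± 0.17 in dxo1, and neither passed.

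Whether the ABA response differed between genotypes was tested as an interaction, which was added after the data were seen. It called 0 of the 5 genes by edgeR's quasi-likelihood test, 2 of which had an unadjusted p under 0.05, and 8.92% of all genes tested (836 higher and 917 lower, or 1188 and 720 with scaling by library size alone). AT1G23130 had a difference of 0.61 ± 0.25 (dxo1 response minus Col-0 response on the log2 scale, SE, edgeR adjusted p = 0.143) and AT3G08520 one of -0.56 ± 0.23 (edgeR adjusted p = 0.150). Without Col-0 ABA replicate 1 the difference of AT1G23130 was 0.95 ± 0.27 (edgeR adjusted p = 0.0481). DESeq2's Wald test also called 0 of the 5.

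In the genotype comparisons in GMUCT the number of the 5 genes called was near the share of all genes called. AT2G15960 was called both without and with ABA. Without ABA it had 1403 and 1757 counts in dxo1 NT, against 1745 and 1646 in Col-0 NT, which is 106 ± 16.7 CPM against 168 ± 22.5 CPM (SD, n = 2 each). It fell by 0.66 ± 0.17 on the log2 scale (SE, edgeR adjusted p = 0.0101) as the only one of 5 genes to pass, where 20.5% of all genes tested passed (1981 higher and 2037 lower, or 3475 and 1301 with scaling by library size alone). That call was lost without Col-0 NT replicate 2 (edgeR adjusted p = 0.176) or dxo1 NT replicate 1 (0.0979). With ABA it had 982 and 913 counts in dxo1 ABA, against 1159 and 965 in Col-0 ABA, or 98.7 ± 17.7 CPM, against 196 ± 12.7 CPM. It fell by 0.99 ± 0.17 (edgeR adjusted p = 0.000283), and in both comparisons every dxo1 library was below every Col-0 library. The fall with ABA passed in all of the alternatives run, including leaving out each library.

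With ABA 2 of the 5 genes passed between genotypes, where 30.7% of all genes tested passed (2917 higher and 3108 lower, or 5642 and 1907 with scaling by library size alone). The other was AT1G23130, which was higher by 0.52 ± 0.18 on the log2 scale in dxo1 ABA (59.8 ± 5.52 CPM) than in Col-0 ABA (41.6 ± 11.2 CPM; SD, n = 2 each, edgeR adjusted p = 0.0376). That call was lost without Col-0 ABA replicate 2 (0.28 ± 0.21, edgeR adjusted p = 0.346) or dxo1 ABA replicate 2 (0.43 ± 0.21, edgeR adjusted p = 0.140). AT3G08520 stood at -0.38 ± 0.17 (edgeR adjusted p = 0.0907) and passed only without dxo1 ABA replicate 1 (-0.54 ± 0.19, edgeR adjusted p = 0.0388). AT4G29390 stood at -0.32 ± 0.17 and AT3G05155 at -0.22 ± 0.58, and neither passed.

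**Figure D3:**
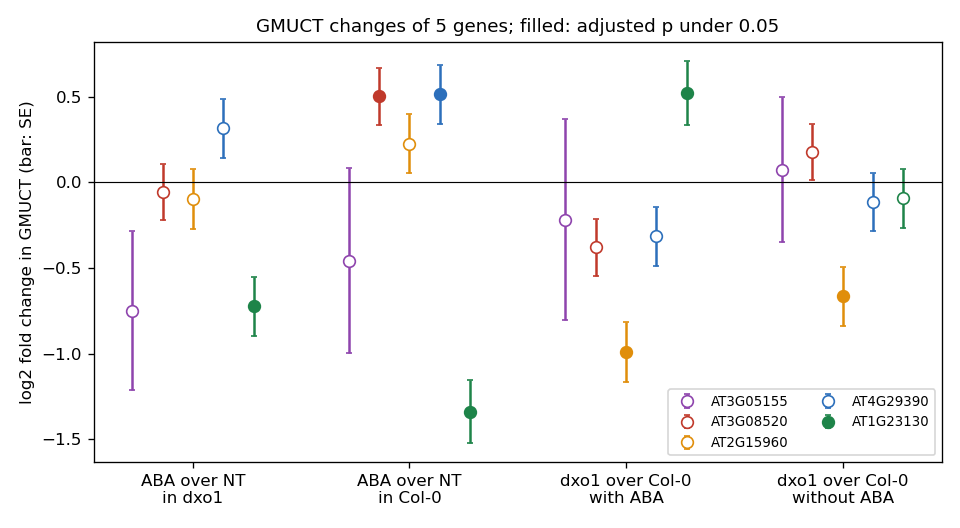
GMUCT log2 fold changes with their SE for the 5 genes tested, in 4 comparisons along the x axis; filled points have an edgeR adjusted p under 0.05. AT1G23130 lies below 0 with ABA in both genotypes, and AT2G15960 lies below 0 in dxo1 against Col-0 at -0.99 with ABA and -0.66 without it.

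Within the NAD libraries, the effects of ABA and of genotype are other contrasts than the one that chose the genes, although the same libraries entered the choice. The p-values of the 6 genes within NAD libraries, and within total RNA libraries below, are therefore not independent of the choice. All 6 genes passed the filter, among 3814. AT2G04500 passed it only through its dxo1 ABA libraries, where its counts were highest. Its changes that involve dxo1 ABA are therefore a description with no test. Among the genes other than AT2G04500, ABA in dxo1 called 1, where 0.367% of all genes tested were called. AT3G05155 had a NAD level of 40.9 ± 7.17 CPM in dxo1 ABA, against 7.18 ± 4.44 CPM in dxo1 NT (SD, n = 2 each), and each ABA library was above each NT library. This sugar transporter family gene rose by 2.50 ± 0.54 on the log2 scale (SE, edgeR adjusted p = 0.0489). The call stood just inside the threshold and was lost under most alternatives, among them the DESeq2 Wald test (2.51, adjusted p = 0.161) and the fits without dxo1 NT replicate 1 (1.90, edgeR adjusted p = 0.567), dxo1 ABA replicate 1 (2.30, 0.300) or dxo1 ABA replicate 2 (2.67, 0.0656). AT2G04500 had 17.7 ± 4.39 CPM in dxo1 ABA, against 5.93 ± 0.379 CPM in dxo1 NT, a log2 change of 1.52 ± 0.66. AT2G15960 had 15.9 ± 0.516 CPM in dxo1 ABA, against 38.4 ± 6.20 CPM in dxo1 NT, a log2 change of -1.32 ± 0.35 (edgeR adjusted p = 0.175).

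ABA in Col-0 called 0 of the 6 in NAD libraries by edgeR's quasi-likelihood test, 1 of which had an unadjusted p under 0.05, and DESeq2's Wald test also called 0, where 0.472% of all genes tested were called by edgeR. AT3G05155 had 27.8 ± 12.7 CPM in Col-0 ABA, against 9.66 ± 7.35 CPM in Col-0 NT (SD, n = 2 each), a log2 change of 1.47 ± 0.61 (edgeR adjusted p = 0.386). AT1G23130 had 32.6 ± 31.9 CPM in Col-0 ABA, against 67.9 ± 2.57 CPM in Col-0 NT, a log2 change of -0.82 ± 0.41 (edgeR adjusted p = 0.507). These values depended on which Col-0 ABA NAD library was kept. With replicate 1 alone, the library that stood apart, the change of AT1G23130 was -2.72 ± 0.58 (edgeR adjusted p = 0.00399), that of AT2G04500 was 2.22 ± 0.65 (0.0488) and that of AT3G05155 was 2.01 ± 0.67 (0.0903), and the median of all genes was -0.52. With replicate 2 alone they were -0.30 ± 0.32 (edgeR adjusted p = 0.787), 0.026 ± 0.72 (0.997) and 1.02 ± 0.61 (0.554).

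Between genotypes without ABA, 1 of the 6 was called in NAD libraries, where 0.315% of all genes tested were called. AT3G08520 (RPL41) had a NAD level of 94.6 ± 9.24 CPM in dxo1 NT, against 31.2 ± 1.16 CPM in Col-0 NT (SD, n = 2 each). It rose by 1.55 ± 0.30 on the log2 scale (SE, edgeR adjusted p = 0.0300), and each dxo1 library was above each Col-0 library. The call was lost when any 1 of the 4 libraries was left out (log2 changes of 1.41 to 1.66, edgeR adjusted p of 0.0686 to 0.325) and with the DESeq2 Wald test (1.58, adjusted p = 0.291). The log2 changes of the other 5 ran from -0.59 for AT2G04500 to 0.15 for AT1G23130. With ABA, where AT2G04500 carries no test, 0 of the other 5 were called between genotypes by edgeR's quasi-likelihood test. Of these, 1 had an unadjusted p under 0.05 and DESeq2's Wald test called 0, where edgeR called 0.157% of all genes tested. AT3G08520 had 75.9 ± 7.82 CPM in dxo1 ABA, against 42.8 ± 8.54 CPM in Col-0 ABA (0.66 ± 0.32 on the log2 scale, edgeR adjusted p = 0.484), and AT2G15960 had 15.9 ± 0.516 CPM, against 35.7 ± 6.22 CPM (-1.24 ± 0.39, edgeR adjusted p = 0.239). The genotype difference in ABA response called 0 of all 3814 genes in NAD libraries by edgeR's quasi-likelihood test, 231 of which had an unadjusted p under 0.05, and 0 by DESeq2's Wald test.

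The change of NAD over total RNA between dxo1 and Col-0 was fitted as a double ratio, because DXO1 is known to remove NAD caps. It is built from the same NAD and total RNA values that chose the 6 genes, so their values are a description with no test. Over all 5475 genes 1 passed without ABA (0.0183%), and it was none of the 6. AT3G08520 stood at 4.09 ± 0.91 on the log2 scale without ABA (SE), and at 6.94 without dxo1 NT total RNA replicate 2, which leaves dxo1 NT with 0 counts of this gene in total RNA. AT2G15960 stood at 1.67 ± 0.65, AT1G23130 at 0.57 ± 0.61 and AT4G29390 at -0.31 ± 0.83. AT3G05155 and AT2G04500 had 0 counts in the total RNA libraries compared and give no estimate. With ABA 0 of 5475 genes passed by edgeR's quasi-likelihood test, 299 of which had an unadjusted p under 0.05, and 0 by DESeq2's Wald test. The values of the 5 genes with an estimate ran from -1.15 ± 0.71 for AT2G15960 to 0.78 ± 0.88 for AT3G08520.

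In total RNA only AT2G15960 and AT1G23130 had enough reads to be tested, among 4965 genes, and 0 of these 2 passed in any of the 4 comparisons, by edgeR's quasi-likelihood test or DESeq2's Wald test. Of all genes tested edgeR called 0.725% for ABA in dxo1, 0.443% for ABA in Col-0, 0.0604% between genotypes without ABA and 0.0403% with it. AT2G15960 had 3.60 ± 0.856 CPM in dxo1 NT, against 13.3 ± 0.160 CPM in Col-0 NT (SD, n = 2 each), a log2 change of -1.85 ± 0.58 (edgeR adjusted p = 0.203). AT1G23130 had 9.89 ± 1.08 CPM in Col-0 ABA, against 23.5 ± 4.74 CPM in Col-0 NT, a log2 change of -1.22 ± 0.45 (edgeR adjusted p = 0.304). Unadjusted p was under 0.05 for both genes with ABA in Col-0 and for AT2G15960 without ABA between genotypes. In whole plants, fewer cells of a type and less RNA per cell cannot be told apart.

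Transcripts of the set were short. The median spliced length of the 6 was 808 bases, against 1067.5 for the 466 nuclear protein-coding genes higher in NAD in at least 1 condition and 1846 for all 5251 tested. AT3G08520, with a spliced length of 246 bases, a coding length of 78 bases and 25 codons, was longer than 0.019% of tested genes. AT4G29390 (672 bases), AT2G15960 (771 bases) and AT1G23130 (845 bases) were longer than 1.5%, 3.56% and 5.77% of them. AT3G05155 and AT2G04500, with 2023 and 1993 bases, lay near the middle, longer than 57.9% and 56.8%. The members thus divide in length as they do in GMUCT level, and the part of length in the choice was not tested.

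**Figure D4:**
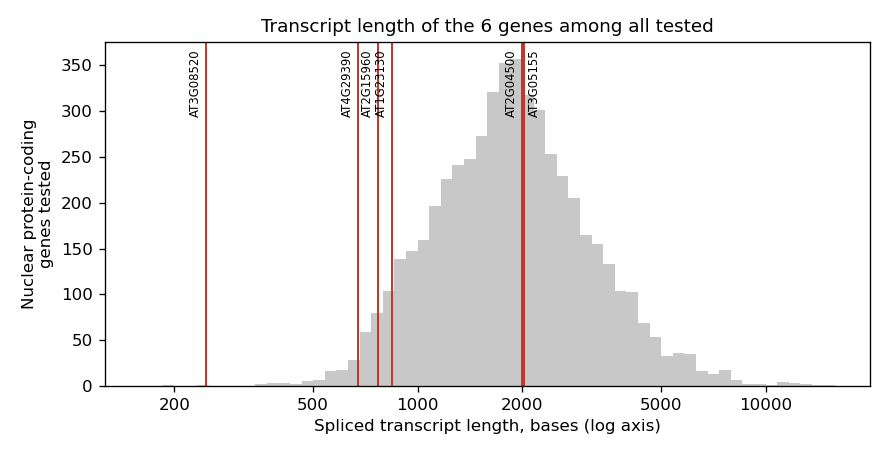
Spliced transcript length on a log axis of the 5251 nuclear protein-coding genes tested (grey counts per bin), with the 6 genes as red lines. AT3G08520 lies at the short end at 246 bases, 3 genes lie between 672 and 845 bases, and AT3G05155 and AT2G04500 lie at 2023 and 1993 bases, near the peak.

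RPL41 is encoded by 5 genes whose proteins are built from coding sequences of equal length. They are printed 5′ to 3′ in coding orientation from TAIR10.1 to show how alike they are and where reads could be shared, with capitals marking bases that differ from AT3G08520.
AT3G08520: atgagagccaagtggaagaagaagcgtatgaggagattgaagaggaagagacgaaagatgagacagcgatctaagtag
AT1G56045: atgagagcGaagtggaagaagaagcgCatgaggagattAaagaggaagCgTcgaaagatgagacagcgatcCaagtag
AT2G40205: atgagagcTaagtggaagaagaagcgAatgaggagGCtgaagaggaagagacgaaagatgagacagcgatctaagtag
AT3G11120: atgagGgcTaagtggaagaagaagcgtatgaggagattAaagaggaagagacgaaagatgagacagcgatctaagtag
AT3G56020: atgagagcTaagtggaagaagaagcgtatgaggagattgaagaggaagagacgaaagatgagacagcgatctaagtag
The number of differing bases was 6 for AT1G56045, 4 for AT2G40205, 3 for AT3G11120 and 1 for AT3G56020, or 92.3%, 94.9%, 96.2% and 98.7% identity over 78 bases. Of the 197 stretches of 50 bases in the AT3G08520 transcript, 21 also occur in AT3G56020 and 89.3% occur nowhere else, so a read of 50 bases told the genes apart over most of the length. Counts of these 2 genes are uncertain over the shared stretch.

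The other 4 RPL41 genes gave calls of their own in NAD over total RNA. AT3G11120 was higher in NAD by 2.71 in dxo1 ABA (edgeR adjusted p = 0.000414), by 3.29 in dxo1 NT (3.58e-05) and by 2.14 in Col-0 NT (0.0119) on the log2 scale, and stood at 0.76 in Col-0 ABA (0.405). AT2G40205 was higher by 3.33 in dxo1 ABA (edgeR adjusted p = 0.00357) and 2.52 in dxo1 NT (0.0156). Its total RNA counts were 0 to 7 in each library and 26 over all libraries. It also overlaps AT2G40200, and 51.0% of its sequence stretches, counted as for AT4G29390, lie inside that overlap. Reads of that overlap may not be told apart. AT3G56020 was higher by 1.55 in dxo1 ABA (edgeR adjusted p = 0.0372), 3.13 in dxo1 NT (0.000965) and 3.58 in Col-0 ABA (0.00129). AT1G56045 went the other way in dxo1 ABA, lower in NAD with a value of -2.28 (edgeR adjusted p = 0.0254). It had 1 to 18 counts in each NAD library, and 1 library held 226 of its 436 total RNA counts. In all, 3 of the 4 were higher in dxo1 ABA with 1 lower, 3 of 4 were higher in dxo1 NT, and 1 of 4 was higher in each Col-0 condition. With scaling by library size alone the directions held in both dxo1 conditions and in Col-0 NT, but AT3G11120, AT2G40205 and AT1G56045 turned to -0.45, -1.22 and -0.42 in Col-0 ABA, where the median of all genes lay at -1.34 instead of -0.11. Under that scaling 0 of the 4 passed in 3 conditions and 2 passed in dxo1 NT. The second RPS30 gene with enough reads, AT5G56670, was higher by 1.86 in dxo1 ABA (edgeR adjusted p = 0.0112) and 3.08 in dxo1 NT (0.000758), and stood at 1.43 in Col-0 ABA (0.130) and 0.94 in Col-0 NT (0.339). Of the sequence stretches of AT5G56670, 12.8% lie inside its overlap with AT5G56660. AT2G19750, the last RPS30 gene, had 45 NAD and 17 total RNA counts over all libraries and was too low to test.

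**Figure D5:**
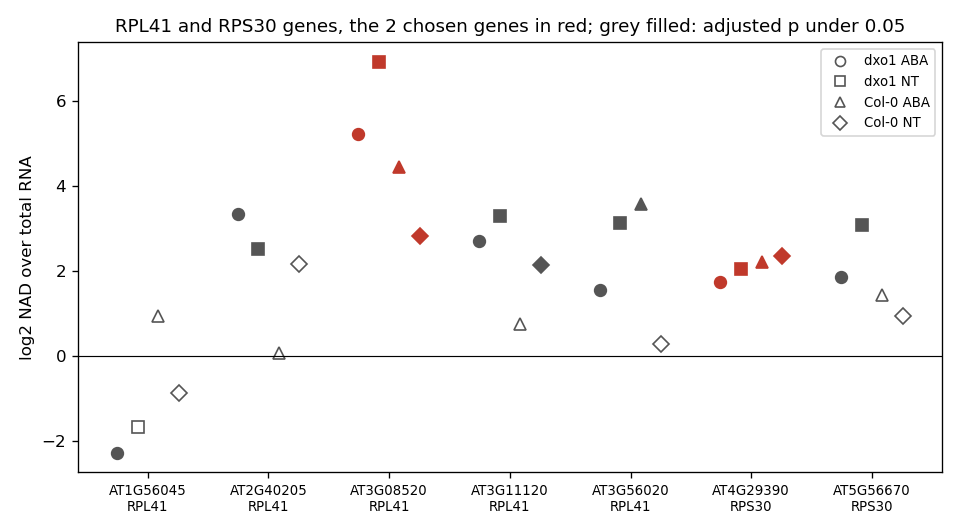
Log2 fold change of NAD over total RNA (y axis) for the RPL41 genes and the 2 tested RPS30 genes (x axis), with AT3G08520 and AT4G29390 in red and 1 symbol for each condition; grey filled symbols have an edgeR adjusted p under 0.05, and the red symbols carry no test. AT3G08520 was chosen on this ratio, so its place as the highest of its family in each condition is no result. Its dxo1 NT symbol rests on 2 total RNA counts. AT1G56045 lies below 0 in all but Col-0 ABA.

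Across the nuclear genes whose annotated name holds ribosomal protein and no word for an organelle, leaving out AT3G08520 and AT4G29390, 200 of 322 had enough reads in NAD and total RNA. Of these, 46 were higher and 7 lower in dxo1 ABA, 38 and 6 in dxo1 NT, 11 and 4 in Col-0 ABA, and 6 and 10 in Col-0 NT, where 5.37%, 7.03%, 1.17% and 1.52% of all genes tested were higher and 6.03%, 6.45%, 1.75% and 2.76% were lower. Their median log2 fold change was 0.78, 0.69, 0.53 and 0.24 in the same order, and that of all genes -0.052, 0.0097, -0.11 and 0.025. Scaling by library size alone left 2 higher and 1 lower in dxo1 ABA, 4 and 1 in dxo1 NT, 0 and 5 in Col-0 ABA and 0 and 5 in Col-0 NT, with the median turned to -0.65 in Col-0 ABA and -0.037 in Col-0 NT. AT5G57290, an acidic protein of the large-subunit stalk, was higher by 3.09 in dxo1 ABA (edgeR adjusted p = 0.000207) and 3.51 in dxo1 NT (4.45e-05), while AT1G26880, an L34e protein, was lower, at -3.56 in Col-0 ABA (0.000364) and -5.08 in Col-0 NT (3.49e-06). In GMUCT, ABA in Col-0 raised 46 and lowered 7 of 290 such genes, against 14% and 12.8% of all genes tested, and with scaling by library size alone 33 rose and 23 fell.

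In the families of the other genes, few members could be tested in NAD over total RNA. Of all genes tested, 5.37% were higher and 6.03% lower in dxo1 ABA, and 7.03% and 6.45% in dxo1 NT. In Col-0 ABA these shares were 1.17% and 1.75%, and in Col-0 NT 1.52% and 2.76%. The counts below were not tested against these shares. Of 18 further ERD6-like transporter genes 9 could be tested, and 0 were called in any condition by edgeR's quasi-likelihood test in NAD over total RNA. The nearest was AT1G08920, at 1.93 in dxo1 ABA (edgeR adjusted p = 0.0521), and AT3G05165 and AT3G05160, which lie close to AT3G05155 on the chromosome, had 71 and 30 NAD counts against 174 and 132 in total RNA. With scaling by library size alone 2 of the 9 were lower in Col-0 ABA. Of 24 further genes of the major latex protein and Bet v1 group, 9 could be tested. Of these, 0 were higher and 1 lower in dxo1 ABA, 1 higher and 2 lower in dxo1 NT, 0 called in Col-0 ABA, and 0 higher and 2 lower in Col-0 NT, and with scaling by library size alone 0 were called in any condition. AT4G23670 was higher in dxo1 NT (1.06, edgeR adjusted p = 0.0366), MLP34 (AT1G70850) was lower in dxo1 ABA, dxo1 NT and Col-0 NT (-1.82, -2.82 and -2.62, edgeR adjusted p = 0.0107, 0.000299 and 0.000819). MLP43 (AT1G70890) was lower in dxo1 NT (-1.61, edgeR adjusted p = 0.00414) and MLP28 (AT1G70830) in Col-0 NT (-1.39, 0.0336). AT1G23120, the neighbour of AT1G23130, had 3 NAD and 13 total RNA counts over all libraries. Of 146 further C1 domain genes only AT1G60420 had enough reads in NAD and total RNA, and it ran from -0.94 to 0.64 with 0 calls.

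Likeness of levels was described over all 24 libraries, which share assay and depth within each kind. Between pairs of the 6 genes, Pearson's r of log2 CPM ran from 0.105 for AT4G29390 with AT1G23130 to 0.861 for AT3G05155 with AT2G04500. The 5 genes most like the mean of the set among 4893 with at least 5 CPM in NAD libraries were SOFL2 (r = 0.875), the histone gene HTB9 (0.872), AT1G12440 of the A20/AN1 zinc finger family (0.869), AT5G05960 of the lipid-transfer protein family (0.859) and NACA3, a subunit of the nascent polypeptide-associated complex (0.855). SOFL2 had means of 13.8 CPM in NAD, 1.04 CPM in GMUCT and 0.158 CPM in total RNA libraries. HTB9 had 29.5, 95.2 and 6.71 CPM in the same order of assays.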

How the data were processed

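NAD-captured, GMUCT and total RNA libraries were sequenced as strand-specific single-end reads of 50 nt, per the labels. The deposited tables hold counts, whole numbers of reads per gene; per the submitters' processing notes the tools were cutadapt, STAR 2.4.2a and HTSeq on TAIR10, while the sources used here do not state the counting mode, the annotation release or other versions. Rows that name no gene were left out. They held 27.3% to 40.2% of reads in GMUCT, 82.4% to 96.1% in NAD and 93.4% to 97.8% in total RNA libraries, mostly reads not aligned uniquely, so a gene's counts cover only its unique sequence. Names, lengths and sequences came from the TAIR10.1 annotation and genome, which matched 28009 of 28775 identifiers (97.3%).

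GMUCT, NAD, total RNA, and NAD with total RNA were each fitted in edgeR 4.0.16 under R 4.3.3, with the group as the only term, TMM scaling, filterByExpr with a minimum count of 10, and quasi-likelihood F tests adjusted by the Benjamini-Hochberg method at 0.05. CPM were scaled by TMM within the NAD with total RNA fit or the GMUCT fit. Each SE was derived from the log2 change and its F statistic (size of the change divided by root F) and is approximate. Alternatives used DESeq2 1.42.0 size factors and its Wald test, library size alone, dropping the filter, a 10 CPM minimum on the mean, no organelle genes, a replicate block, and each library left out; a lone replicate was then assumed to vary like the other groups. Interactions, and scalings of the gene lists, were added after seeing the data. A group at 0 was set to a floor of 3 counts over the group. Fits were also run on simulated counts with known changes and the same spread for all genes, a simpler setting than these libraries. The 6 genes and all lists were chosen with earlier results of these data known. Named genes were the 6, their families (up to 3 per list and comparison by smallest p, and family members in NAD over total RNA), neighbours, the genes next to the threshold of the rule, the 5 most alike and DXO1; AT3G05165 and AT3G05160 were named by position.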

Additional observations from a re-analysis of the deposited data

How the results depend on the processing

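Of 1144 values of the 6 genes under alternatives, 1036 kept their side of the threshold (64 of them uncalled with the sign turned), 101 lost a call, 6 gained one and 1 turned, AT1G23130 in NAD over total RNA of Col-0 ABA at -0.044 without Col-0 ABA NAD replicate 2 (leaving out 1 library gave -0.044 to 2.45 there). Counts of the 6 genes called moved as follows, and the cause was not tested. Leaving out 1 library gave 1 to 2 in GMUCT for ABA in Col-0 (3 in the full fit), 0 to 1 for ABA in dxo1 (1), 0 to 1 for genotype without ABA (1), 1 to 3 for genotype with ABA (2) and 0 to 1 for the interaction (0). In NAD libraries it gave 0 to 2 for ABA in Col-0 (0), 0 to 1 for ABA in dxo1 (1) and 0 for genotype without ABA (1). In NAD over total RNA, where the full fit calls 6 by choice, it gave 2 to 6 in dxo1 ABA, 3 to 5 in dxo1 NT, 2 to 5 in Col-0 ABA and 0 to 3 in Col-0 NT, and 0 to 1 for the genotype double ratio without ABA (0). Scaling by library size alone gave 1 for ABA in Col-0 in GMUCT, 0 for both NAD calls, and 3 in dxo1 ABA, 2 in Col-0 ABA and 1 in Col-0 NT for NAD over total RNA; it puts the median of all genes there at 0.21, -1.34 and -0.26, against -0.052, -0.11 and 0.025 with TMM. In NAD libraries ABA in dxo1 also fell to 0 with DESeq2 size factors, the Wald test, a 10 CPM minimum and the replicate block. There, genotype without ABA fell to 0 with no filter, the DESeq2 Wald test and the replicate block. The double ratio without ABA rose to 1 with the DESeq2 Wald test, through AT3G08520 with 2 total RNA counts in dxo1 NT. Counts of the 6 genes for the double ratio, here and above, carry no test, as it is built from the values that chose them. For ABA in dxo1 in NAD libraries, AT2G04500 carries no test either. Within each assay, not every pair of groups had same-numbered deviations correlated over 0.1, so replicate numbers were not taken to pair the samples. Deviations were not compared between assays, so a pairing of NAD with total RNA libraries was not examined. The correlations were -0.051 to 0.12 in GMUCT, -0.057 to 0.049 in NAD and 0.024 to 0.27 in total RNA, where 3 of 6 pairs were over 0.1, all 3 without Col-0 ABA. With the replicate block the 2 NAD calls had adjusted p of 0.115 (AT3G05155) and 0.0501 (AT3G08520). In no other comparison did it move the count of the 6 genes called by over 1.5 times.

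Calls over all genes moved by over 1.5 times as follows. In NAD over total RNA, 624 (dxo1 ABA), 738 (dxo1 NT), 160 (Col-0 ABA) and 234 (Col-0 NT) became 40, 98, 383 and 76 with library size alone (5 higher and 378 lower in Col-0 ABA, against 64 and 96 with TMM; 2 and 74 in Col-0 NT, against 83 and 151), and 114 to 1042, 263 to 348, 43 to 95 and 91 to 116 without 1 library. In GMUCT, ABA in dxo1 (1509) had 919 with a 10 CPM minimum, and leaving out 1 library gave 2963 to 4134 for ABA in Col-0 (5250), 1359 to 2876 for genotype without ABA (4018) and 813 to 1837 for the interaction (1753). In NAD libraries, ABA in Col-0 (18) had 2 with library size, 30 with no filter, 10 with a 10 CPM minimum, 11 with the block and 28 to 155 without 1 library. ABA in dxo1 (14) had 1 with library size, 8 with a 10 CPM minimum, 6 with the Wald test, 9 with the block and 6 to 11 without 1 library. Genotype without ABA (12) had 0 with library size, 22 with no filter, 3 with the Wald test and 0 to 36 without 1 library. Genotype with ABA (6) had 0 with library size or the block, 2 with a 10 CPM minimum, 16 with the Wald test and 1 to 186 without 1 library. The interaction (0) had 7 with no filter and up to 71 without 1 library. In total RNA, ABA in Col-0 (22) had 61 with no filter, 13 with a 10 CPM minimum, 47 with the block and 4 to 16 without 1 library. ABA in dxo1 (36) had 107 with no filter, 23 without organelle genes, 97 with the block and 4 to 214 without 1 library. Genotype without ABA (3) had 0 with size factors, a 10 CPM minimum or no organelle genes, 8 with library size, 128 with no filter, 34 with the Wald test, 82 with the block and 0 to 65 without 1 library. Genotype with ABA (2) had 0 with library size, 54 with no filter, 4 with the Wald test, 22 with the block and 0 to 360 without 1 library; the interaction (0) had 8 with no filter and up to 10 without 1 library. The double ratio without ABA (1) had 0 with library size, 33 with no filter, 39 with the Wald test, 12 with the block and 0 to 78 without 1 library, and that with ABA (0) up to 8 without 1 library. Total RNA counts of the 6 genes, 0 to 31 per library, limit the NAD ratios.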
